A study of Mus musculus with 6 samples.

Results

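The minor arm of a microRNA (miRNA) hairpin is the arm with fewer counts, and 76 minor arms of well-counted hairpins held by AGO2 in pyramidal neurons of the mouse cortex are described here. Their use ran from about equal with the major arm to no count at all, with a median of 1.04% of the hairpin's counts. They were chosen by their counts. Mature names ending in 5p and 3p with the same stem were paired, which gave 773 hairpins among 1978 listed miRNAs, and 113 of these had at least 100 counts over both arms and both libraries. Names without such a partner name could not enter, among them 27 with 100 or more counts. Names outside pairs held 37.6% of all counts, so the members do not cover every well-counted hairpin. The hairpins miR-9, miR-124, miR-132 and miR-212 were left out by name, miR-9b was left out because it lies opposite miR-9 at the same loci, and 32 hairpins were left out because they lie in the imprinted Dlk1-Dio3 region of chromosome 12. Because the counts of the 2 arms decided which arm is a member, the low counts of the members are a description and are not tested.

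The tissue was cortex of mice at postnatal day 14 that carried a conditional Spy3-AGO2 allele and VGLUT2-Cre, so that AGO2 bears a tag for the SpyCatcher3 resin in cells in which the Cre driver was active. The labels give the genotype only as Spy3-Ago2 and the cell type as pyramidal neurons, and all libraries share both. The series holds 6 libraries in 3 groups of 2, which are miRNA bound to AGO2, target RNA bound to AGO2, and input, and the values here are read counts of the 2 miRNA libraries, without a control group. Nothing in the labels says whether these came from separate animals, so the spread between them may be technical. The libraries held 66854 and 75658 counts. The neuronal miR-128-3p had 8707 and 10180 counts, while 24 marker miRNAs of oligodendrocytes, microglia, vessels and blood together held 0.360% and 0.457% of the counts. The list holds no marker particular to astrocytes, so these values do not measure astrocyte RNA. Among the 24, 10 were at 0 in both libraries. Of these 10, both arms of miR-155 and of miR-223 were at 0, while the other 6 are second arms of hairpins whose first arm was counted, such as miR-21a (71 counts of miR-21a-5p in replicate 1). Among the members, miR-126a-5p (endothelial, 2 and 2 counts) and miR-21a-3p (0 in both) belong to such marker hairpins.

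A miRNA is cut from a folded precursor in steps by Drosha and Dicer, which leaves a short duplex of the 5p and the 3p arm. An Argonaute protein takes up the duplex, keeps 1 strand as its guide and sheds the other, called the passenger or star strand. The guide finds targets through its seed, here bases 2 to 8, so each arm of a hairpin reads a different set of targets. Guides are known to begin often with U, which sits in a pocket of Argonaute, and to come often from the duplex end that is paired more weakly.

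The sequences below are those of the 6 hairpins in which the minor arm reached at least 25% of the counts, the hairpins that came nearest to equal use of both arms. They are mature sequences from RefSeq on GRCm38.p6, the assembly of mm10, read 5′ to 3′ with the seed in capitals, and the minor arm stands first in each pair.
miR-384-3p: aUUCCUAGaaauuguucacaau
miR-384-5p: uGUAAACAauuccuaggcaaugu
miR-340-5p: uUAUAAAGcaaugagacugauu
miR-340-3p: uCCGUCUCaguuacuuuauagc
miR-330-3p: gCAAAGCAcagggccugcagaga
miR-330-5p: uCUCUGGGccugugucuuaggc
miR-361-3p: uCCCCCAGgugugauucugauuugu
miR-361-5p: uUAUCAGAaucuccagggguac
miR-674-3p: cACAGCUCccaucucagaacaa
miR-674-5p: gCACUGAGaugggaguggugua
miR-324-3p: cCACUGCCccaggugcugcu
miR-324-5p: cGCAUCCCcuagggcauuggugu

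The hairpin of miR-384 is shown whole with its minor arm, bases 57 to 78, in capitals, because its arms came closest to equal counts. The gene Mir384 lies at chrX:105344282-105344369 on the minus strand (GRCm38.p6).
Mir384: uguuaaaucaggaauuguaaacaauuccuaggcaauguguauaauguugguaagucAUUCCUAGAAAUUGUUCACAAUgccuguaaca
The first 8 bases of miR-384-3p are also bases 9 to 16 of miR-384-5p, outside the seed of the 5p arm. The seeds of the 2 arms therefore differ although the arms share this run.

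All 76 minor arms together held 698 counts in replicate 1 and 858 in replicate 2. That is 1.09% ± 0.0636 (SD, n = 2) of each library, while both arms of the same hairpins held 28.6% ± 0.0902. Of the counts of these hairpins, 3.80% ± 0.234 (SD, n = 2) lay on the minor arm. The median hairpin had 1.04% of its counts on the minor arm, with 1.14% in replicate 1 and 0.992% in replicate 2. The spread was wide: 23 minor arms had 0 counts, 14 had more than 0 but under 1% of their hairpin, 16 had 1 to 5%, 17 had 5 to 25% and 6 had at least 25%. Of the 53 with a count, 41 were counted in both libraries, 31 had at least 10 counts summed and 4 had at least 100. A few members made up most of the signal, since the 5 with the most counts held 45.7% of all minor-arm counts and the 10 with the most held 63.6%.

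**Figure D1:**
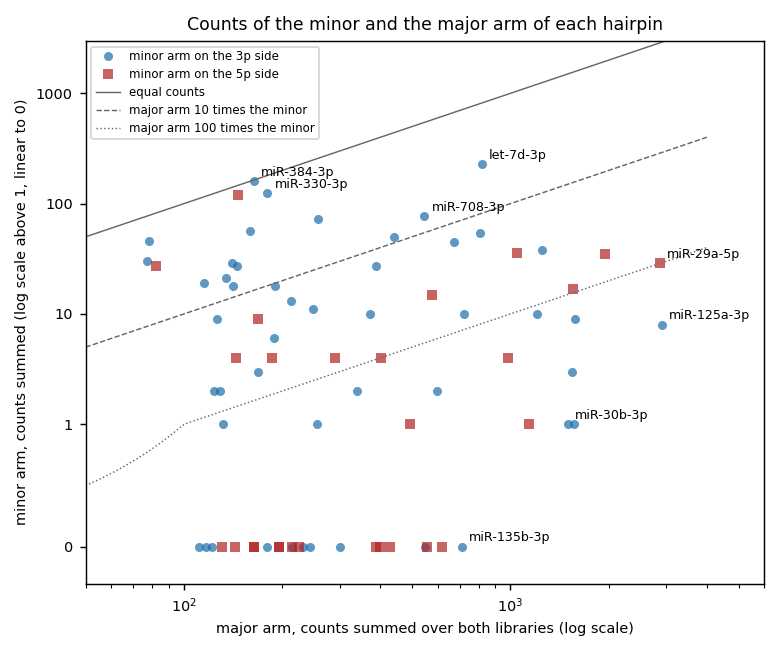
Counts of the minor arm against the major arm for the 76 hairpins, summed over both libraries; the horizontal axis is logarithmic, and the vertical axis is logarithmic above 1 and linear down to 0. Circles have the minor arm on the 3p side and squares on the 5p side, and the lines mark equal counts and ratios of 10 and 100. Points run from the line of equal counts (miR-384-3p) to 0 counts beside a major arm of 710 (miR-135b-3p).

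let-7d-3p was the most counted minor arm, with 97 counts in replicate 1 and 131 in replicate 2, against 392 and 427 for let-7d-5p, a member of the let-7 family that rises as cells mature. It was the only minor arm among the 100 most counted miRNAs of the libraries, at rank 93, and 11 were among the first 200. Its share of the hairpin was 19.8% and 23.5%, or 21.7% ± 2.57 (SD, n = 2). Mirlet7d lies on chromosome 13 (48536012 to 48536114, minus strand).

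miR-384-3p came next with 71 and 89 counts, against 73 and 91 for miR-384-5p, an arm with the miR-30 seed. Its share was 49.3% and 49.4%, 49.4% over both libraries with an exact 95% interval of 43.8 to 55.0%, so these counts do not settle which arm of miR-384 is the minor one. miR-340-5p, from a hairpin in the span of Rnf130, had 50 and 71 counts beside 58 and 89 for miR-340-3p, a share of 45.1% (39.1 to 51.3%), and here too the interval takes in equal use. miR-330-3p, from a hairpin in the span of Eml2, had 67 and 58 counts beside 180 summed for miR-330-5p, a share of 41.0% (35.4 to 46.7%). Its libraries lay farther apart than those of miR-384-3p and miR-340-5p, at 47.5% and 35.4%.

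The other minor arms past 25% had fewer counts. miR-361-3p, whose hairpin lies in the span of Chm, had 17 and 29 counts and a share of 37.1% (28.6 to 46.2%). miR-674-3p had 13 and 17 counts and a share of 28.04% (19.8 to 37.5%), and miR-324-3p, in the span of Acadvl, had 29 and 27 counts and a share of 26.05% (20.3 to 32.5%). For each of these 3 the interval lies below 50%, and each library gave the same arm as the lower one.

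Just below this line, miR-140-5p had 10 and 17 counts and a share of 24.8%, miR-335-3p, from a hairpin in the span of the imprinted gene Mest, had 37 and 36 counts and 22.1%, and miR-31-3p had 17 and 12 counts and 17.2%. miR-140 is a hairpin of the Wwp2 span known mainly from cartilage, and its 5p arm is the one best known from that tissue. Between 10% and 17% lay miR-296-3p (15.6%), miR-17-3p (14.2%), miR-582-3p (13.5%), miR-708-3p (12.4%, 47 and 30 counts), miR-151-3p (11.3%) and miR-181c-3p (10.2%, 12 and 38 counts). With shares ordered from the highest, all 15 pairs of neighbours among the 16 minor arms past 10% had overlapping intervals, so the order of neighbours is not settled at this depth. The intervals cover read counting error only. The deposited counts keep duplicates, and whether reads of 2 different sequences stand for equal numbers of molecules was not tested.

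**Figure D2:**
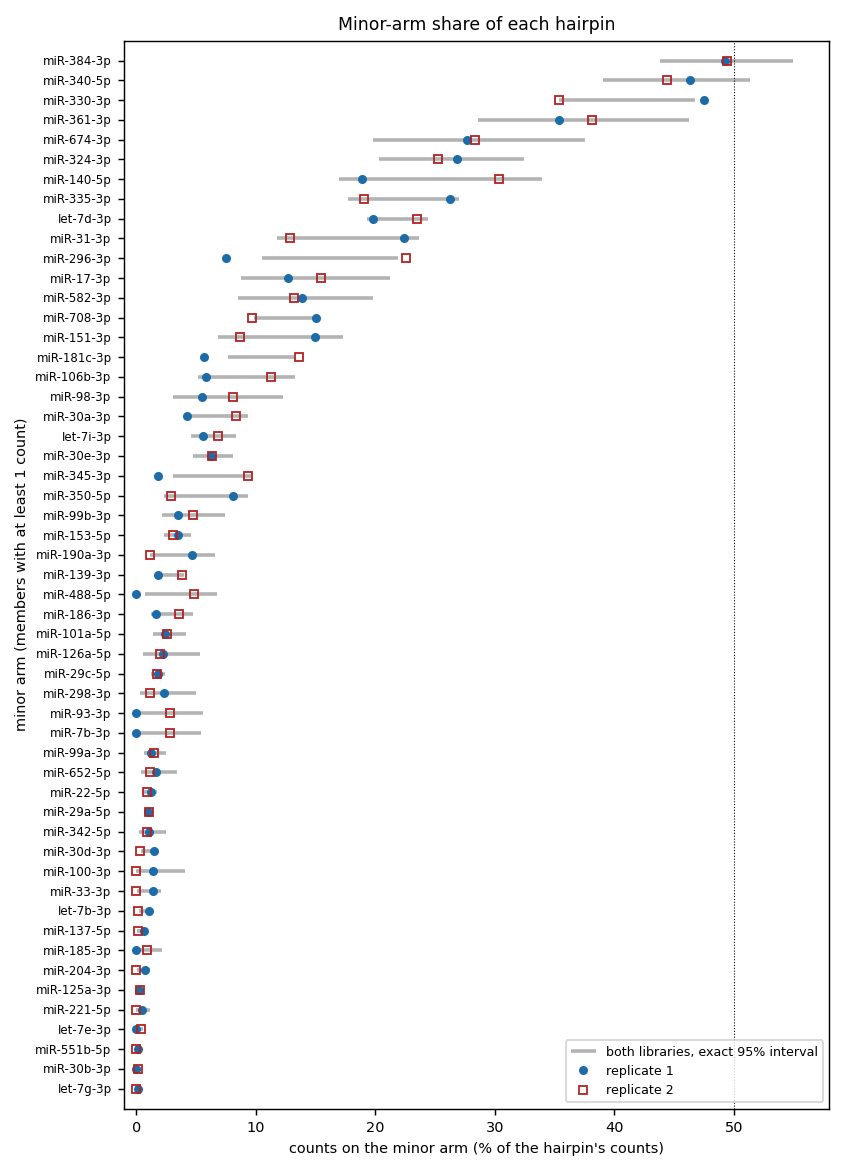
Share of each hairpin's counts on the minor arm, in percent, for the 53 members with at least 1 count, ordered by the share over both libraries. Filled circles are replicate 1, open squares replicate 2, grey bars the exact 95% interval over both libraries, and the dotted line marks 50%. Of these members 6 lie at or past 25%, and the bars of miR-384-3p and miR-340-5p cross 50%.

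At the other end, several hairpins with 989 counts or more gave a second arm of under 1% over both libraries, although others as deep, such as let-7d, did not. miR-125a, with 2923 counts, had 3 and 5 counts on its 3p arm, a major arm 364 times the minor. miR-137, known for its part in neuronal maturation, had 3 counts and 1 count on the 5p arm (major over minor 246). let-7b-3p had 8 counts and 1 count (175), and let-7g-3p had 1 and 0 counts of 1571. miR-30b-3p had 0 and 1 of 1498 counts, and miR-551b-5p had 1 and 0 of 1142, a share of 0.0876% with an upper limit of 0.487%. let-7e-3p had 0 and 3 counts of 1546 in all and miR-221-5p had 1 and 0 of 494, both under 0.5% in each library. In shallower hairpins single counts set the share: miR-204-3p was at 0.752% in replicate 1 and 0 in replicate 2 (2 of 600 counts in all), and miR-185-3p at 0 and 0.885% (1 of 256). miR-29a-5p and miR-29c-5p were low in share but steady in count: 14 and 15 counts for miR-29a-5p, and 17 and 18 for miR-29c-5p, at 1.00% and 1.76% of their hairpins. miR-22-5p likewise had 9 and 8 counts, 1.08% of its hairpin, and miR-101a-5p 7 and 8, or 2.54%. In between lay miR-345-3p (5.75%), miR-350-5p (5.06%, 6 and 3 counts), miR-190a-3p (3.08%, 5 counts and 1 count), miR-186-3p (2.62%, 3 and 7), miR-652-5p (1.36%, 2 and 2), miR-30d-3p (0.822%, 8 and 2) and miR-33-3p (0.585%, 2 and 0), and for none of these 7 did more than 13 counts lie behind the share.

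The 23 minor arms at 0 counts came from hairpins with 111 to 710 counts. A count of 0 there allows a minor arm of up to 0.423% of the hairpin for miR-135b-3p, the deepest, and up to 2.70% for miR-146b-3p, the shallowest. They include the minor arms of all 4 hairpins of miR-23 and miR-27: miR-23b-5p (0 of 618 counts, up to 0.485%), miR-27b-5p (0 of 555, up to 0.541%), miR-23a-5p (0 of 215) and miR-27a-5p (0 of 131). These 2 pairs of hairpins lie on chromosome 13, in the span of Aopep, and on chromosome 8, and are known as clusters transcribed together. The others were miR-149-3p (0 of 549), miR-331-5p (0 of 428), miR-222-5p (0 of 399), miR-1249-5p (0 of 389), miR-191-3p (0 of 300), miR-195a-3p (0 of 243), miR-15a-3p, miR-101b-5p, miR-21a-3p, miR-301a-5p, miR-328-5p, miR-26b-3p, miR-193b-5p, miR-598-5p, miR-148a-5p, miR-374b-3p and miR-181d-3p.

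The side of the minor arm was not part of its choice. It was the 3p arm in 48 hairpins and the 5p arm in 28. Minor arms on the 3p side had a median share of 2.18%, with 10 of 48 at 0 counts and 5 at 25% or more. Those on the 5p side had a median of 0.145%, with 13 of 28 at 0 and 1, miR-340-5p, past 25%. Among hairpins with 10 to 99 counts, the minor arm was on the 3p side in 43 of 74. In the 32 hairpins left out by their place on chromosome 12 it was so in 8, and their median minor-arm share was 7.59%, with 6 of them past 25%. These are counts over hairpins, which are not replicates, and no test was made between the sets.

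Both arms had a RefSeq sequence for 64 of the 76 hairpins. A first U was found in 9 of the 64 minor arms (14.1%) and in 35 of the 64 major arms (54.7%). Over all 1679 mature miRNAs of the sequence table the share was 40.9%, so the minor arms lay below it and the major arms above. In 29 hairpins the major arm alone began with U, in 3 the minor arm alone, in 6 both arms and in 26 neither. C was the most common first base of the minor arms, in 25 of 64 (39.1%), against 7 of 64 major arms (10.9%) and 20.7% of all mature miRNAs. Minor arms on the 3p side began with C in 21 of 43 and with U in 5, and those on the 5p side began with A in 9 of 21, with C in 4 and with U in 4. Median length was 22 bases for both kinds of arm.

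**Figure D3:**
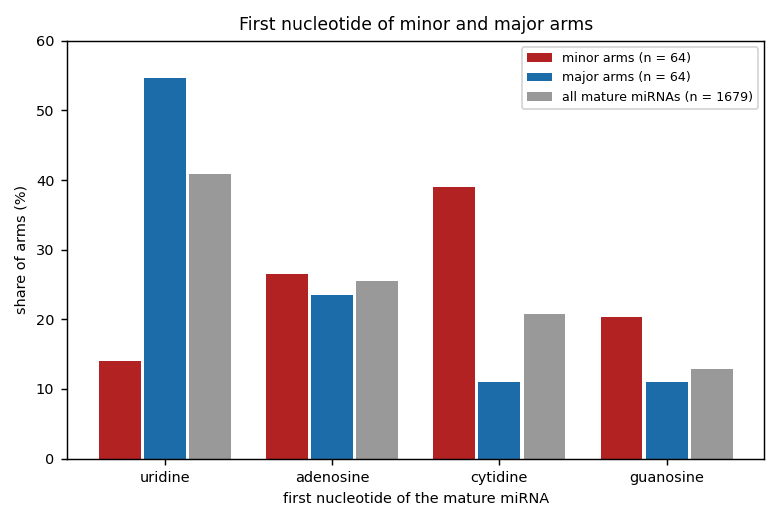
Share of arms, in percent, that begin with each nucleotide, for the 64 minor arms, the 64 major arms of the same hairpins and all 1679 mature miRNAs of the sequence table. Bars start at 0. Uridine opens 14.1% of minor and 54.7% of major arms, and cytidine 39.1% and 10.9%.

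The first 4 bases were used as a rough measure of how weakly an arm's 5′ end can pair, since A and U pair more weakly than G and C. They include base 1, so this measure is not separate from the first base described above, and bases 2 to 4 were not compared alone. Base 1 was U in 9 and A in 17 of 64 minor arms, and U in 35 and A in 15 of 64 major arms. Minor arms held a mean of 1.86 A or U among the first 4 bases and major arms 2.25, against 2.02 over all mature miRNAs. The minor arm had fewer in 27 hairpins, as many in 21 and more in 16. Among the 6 hairpins with a share of 25% or more it had fewer in 1, as many in 3 and more in 2. Of these 6, miR-340 and miR-361 began with U on both arms, as the sequences above show, miR-384 and miR-330 on the major arm alone, and miR-674 and miR-324 on neither.

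Among hairpins whose major arms share a seed, the minor-arm share ranged widely in some groups and little in others. The let-7 group is the largest, and its 3p arms are printed because their seeds part ways while their 5p arms all carry GAGGUAG in bases 2 to 8.
let-7d-3p: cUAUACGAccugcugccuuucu
miR-98-3p: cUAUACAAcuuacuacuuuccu
let-7i-3p: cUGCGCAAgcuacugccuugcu
let-7b-3p: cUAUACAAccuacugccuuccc
let-7e-3p: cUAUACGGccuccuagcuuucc
let-7g-3p: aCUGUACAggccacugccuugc
These 6 hairpins held 5 seeds on the minor arm, of which only that of miR-98-3p and let-7b-3p was shared. Their minor-arm share ran from 21.8% of 1047 counts for let-7d-3p, through 6.67% for miR-98-3p (9 counts) and 6.29% for let-7i-3p (45 of 715), to 0.569% for let-7b-3p (9 of 1583), 0.194% for let-7e-3p and 0.0637% for let-7g-3p. let-7d-3p was above 19% in both libraries, and let-7b-3p, let-7e-3p and let-7g-3p were at or below 1.04% in both.

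In all, 23 of the 64 hairpins fell into 8 groups with a common major-arm seed, and their minor arms held 20 seeds. In 5 groups every minor arm had its own seed, and in none did all minor arms share 1. The group with the miR-30 seed that has sequences held miR-384-3p at 49.4%, miR-30a-3p at 6.51% (8 and 19 counts) and miR-30e-3p at 6.29% (25 and 29 counts). The hairpins miR-30b and miR-30d lacked sequences and are not in this group. Their minor arms were lower, with miR-30b-3p at 0.0668% and miR-30d-3p at 0.822%. The minor arms of miR-30a and miR-30e carried the same seed, that of miR-384 another.
miR-30a-3p: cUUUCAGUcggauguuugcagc
miR-30e-3p: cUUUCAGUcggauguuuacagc
The miR-17 seed group, linked to proliferation, held miR-17-3p at 14.2% (8 and 11 counts), miR-106b-3p at 8.65% (6 and 12) and miR-93-3p at 1.59% (0 and 2), each with its own seed. miR-99b-3p was at 4.25%, miR-99a-3p at 1.37% and miR-100-3p at 0.752%.

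**Figure D4:**
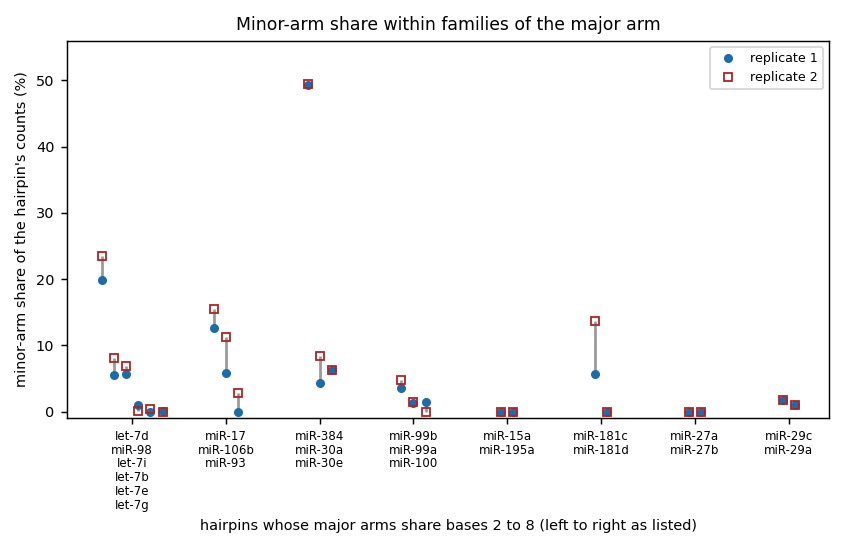
Minor-arm share of the hairpin's counts, in percent, in the 8 groups of hairpins whose major arms share bases 2 to 8; within a group points run from left to right in the order of the names. Filled circles are replicate 1, open squares replicate 2, and a line joins the 2 values. Shares within the let-7 group run from 0.0637% to 21.8% over both libraries, while both hairpins of the miR-15a and the miR-27a groups are at 0.

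Some clusters held hairpins with unlike shares and others did not. Within 10 kb of each other lay 17 members in 8 clusters. On chromosome 8, miR-181c gave 50 counts on the 3p arm and 441 on the 5p arm (10.2% minor), and 117 counts of its neighbour miR-181d gave 0 on the 3p arm, which allows up to 2.56%. On chromosome 2, miR-296-3p held 15.6% of 173 counts (6 and 21 counts) and miR-298-3p 1.74% of 172 (2 counts and 1 count). On chromosome 5, in the span of the replication gene Mcm7, miR-106b-3p held 8.65% and miR-93-3p 1.59%, while on chromosome 17, in the span of Spaca6, miR-99b-3p held 4.25%, let-7e-3p 0.194% and miR-125a-3p 0.274%. The clusters of miR-23a with miR-27a and of miR-23b with miR-27b were at 0 throughout, and miR-221-5p with miR-222-5p had 1 count in all.

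Through its seed a minor arm can stand beside other miRNAs. Of the minor arms with a sequence, 18 shared the seed with another listed miRNA. miR-330-3p (67 and 58 counts) had the seed of miR-6240 (306 summed), miR-181c-3p (50) that of miR-181a-1-3p (38), and miR-7b-3p (2) that of miR-7a-2-3p (22). miR-99a-3p (10) and miR-99b-3p (11) shared 1 seed, as did miR-30a-3p (27) and miR-30e-3p (54). miR-17-3p (19) shared its seed with miR-20b-3p and miR-106a-3p, both at 0 counts.

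By lists of hairpins written from general knowledge and not checked against other tissues, 15 members were in the neuron or brain list. That list also holds miR-221 and miR-222. Of these 15 members, 3 were past 25% (miR-384-3p, miR-330-3p and miR-340-5p) and 5 were at 0, with a median of 1.53%. In the same list miR-139-3p had 10 and 28 counts (2.96%), miR-153-5p, from the span of Ptprn2, had 18 and 18 counts (3.31%), and miR-488-5p had 0 and 4. The 39 members from broadly expressed hairpins had a median of 1.00%, with 11 at 0 and miR-361-3p and miR-324-3p past 25%. Of hairpins widely described as using both arms, 9 were members. Their median was 11.3%, against 1.04% over all 76, and all 9 had counts. The list was chosen for use of both arms and with earlier results of these data known, so its higher share is not independent evidence. Its members are miR-361-3p, miR-324-3p, miR-140-5p, miR-17-3p, miR-151-3p, miR-30a-3p, miR-30e-3p, miR-126a-5p (2.11%) and miR-342-5p (0.988%). No mirtron of the list was a member, and 20 members were in no list, led by miR-708-3p, miR-335-3p, miR-674-3p and miR-31-3p.

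The same measure can be read in a library that did not choose the arm. Among 73 hairpins chosen with at least 50 counts in replicate 1 alone, the minor arm was also the lower one in replicate 2 in all 73, with a median share of 0.948% there. Among 83 chosen in replicate 2, it was the lower one in replicate 1 in all 83, with a median of 1.04%. All 76 members had fewer counts than their partner in each library. Between the libraries, the shares of the 76 hairpins had a Pearson r of 0.947 and a Spearman rho of 0.876. These values include the 23 hairpins at 0 in both libraries, which are tied. Over the 31 with at least 10 minor-arm counts they were 0.927 and 0.928. For these 31 the median difference between libraries was 1.93 percentage points. Hairpins of 1 library share its preparation and depth, so these values describe the hairpins and carry no p.

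The split between the arms was tested between the libraries with Fisher's exact test (two-sided, Benjamini-Hochberg over all 200 paired hairpins with at least 10 counts), which compares these libraries and not conditions. None of the 76 members passed at 0.05, with 7 at an unadjusted p under 0.05, against 0.500% called and 17 at an unadjusted p under 0.05 over all 200. A hairpin with no count on 1 arm cannot pass this test, which holds for 23 of the 76 members. The 12 members with 1 to 3 minor-arm counts had too few counts to reach 0.05. For these members the result was therefore fixed in advance. The 10 members with 4 to 9 minor-arm counts had little or no room to pass after adjustment over 200 hairpins, so their result says little. Even the 8 counts and 1 count of let-7b-3p stayed far from the threshold, as given below. The lowest adjusted p among members was that of miR-181c, whose 3p arm took 5.66% in replicate 1 and 13.6% in replicate 2 (Fisher's exact adjusted p = 0.133). miR-296-3p took 7.50% and 22.6% (Fisher's exact adjusted p = 0.188), miR-345-3p 1.85% and 9.32% (0.408) and let-7b-3p 1.04% and 0.123% (0.408). A p that misses the threshold does not show that the splits were equal. These exact tests, and those on counts that follow, take each read as independent, which reads with duplicates kept are not, so their p-values cover read counting error only and may be too small.

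The count of each minor arm was compared in the same way with an exact binomial test against the library totals, adjusted over 310 miRNAs with at least 10 counts. Of these 1.29% were called, and 46 had an unadjusted p under 0.05. Of the 31 members tested 0 were called and 5 had an unadjusted p under 0.05: miR-181c-3p, miR-296-3p, miR-139-3p, miR-708-3p and miR-345-3p. miR-181c-3p came nearest, with 12 and 38 counts (exact binomial adjusted p = 0.0526). With edgeR's TMM factors in place of totals it passed (exact binomial adjusted p = 0.0444), and with DESeq2 size factors it did not (0.0705). miR-708-3p went the other way, with 47 and 30 counts (exact binomial adjusted p = 0.207).

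At the count minimum the values were mixed on both sides. The 3 hairpins just inside were miR-674 (30 counts on the minor and 77 on the major arm, 28.04%), miR-140 (109, 24.8%) and miR-146b (111, 0), and the 3 just outside were miR-500 (98, 0), miR-497a (97, 4.12%) and miR-3059 (94, 0). Of the 74 hairpins with 10 to 99 counts, 14 had a share of at least 25% (18.9%), against 6 of 76 members (7.89%), and 33 had no count on the minor arm.

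On the target side, none of the 2197 deposited peaks of the series overlapped the hairpin gene of a member. Hairpins of 52 members lay within the span of a protein-coding or lncRNA gene, in either strand. Their median minor-arm share was 0.786%, against 1.22% for the other members. Which targets the minor arms bind was not analysed here.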

How the data were processed

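RNA pulled down with Spy3-AGO2 was cut from a protein gel, ligated to adapters with random bases and sequenced as single reads, per the labels' protocols. The genome build mm10 and the tools Bowtie2 2.4.2, STAR 2.5.2a, cutadapt 2.10 and UMI-tools are listed, with no role, in the submitters' processing notes. The miRNA values are raw counts as deposited by the authors, and their name says that duplicates were not removed. An unassigned row held 0 counts and was left out. The authors' peak list was used for positions, since its deposited score is 0 for every peak; its caller is not given in the sources used here.

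Hairpins were placed by RefSeq (GRCm38.p6); gene spans carry no exons or strand. Shares have exact (Clopper-Pearson) 95% intervals, and the limit for a count of 0 is 3 counts, which is lower than the upper end of that interval. The members and lists were chosen with earlier results of these data known. Named are the members with the most counts, the highest and lowest shares, those nearest the count minimum and up to 4 per list, with those that share seeds; cluster partners and others were chosen after their values were seen. Tests used scipy 1.17.1 and were tried on simulated data. For the arm split the simulated starting shares did not go as low as those of most members. Reads were simulated as independent, without duplicates, so the simulation does not show how the tests behave at low shares or with duplicates kept. The tools edgeR 4.0.16 and DESeq2 1.42.0 gave scaling factors only. With 1 group of counts, no model between groups was fitted.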

Additional observations from a re-analysis of the deposited data

How the results depend on the processing

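With a minimum of 50 counts per hairpin 13 minor arms held at least 25%, with a median share of 1.36% and 1.26% of all counts. With a minimum of 200 there were 49, of which 31 lay on the 3p side and all 49 were the lower arm in both libraries, with a median of 0.822% and 0.910% of all counts. With no hairpin left out by name or place, the 113 minor arms had a median of 1.76%, 12 past 25%, 17 that begin with U and 4.47% of all counts. Of these 113, 112 were the lower arm in both libraries. From 1 library alone the median ran from 0.930% to 1.05% and the share of all counts from 0.999% to 1.17%. Without miR-128-3p in the denominator the members held 1.26% of the counts, and the 53 members with a count had a median of 2.96% (chosen after seeing the data). With TMM factors 1 minor arm, miR-181c-3p, was called between the libraries, and 11 miRNAs in all, by a test that covers read counting error only. Of the values under other settings, 23 stayed within 1.5 times, or within the spread between libraries. Among them were all tests of the arm split, which called 0 members. Keeping miR-9b, chosen after seeing the data, gave 77 minor arms. No paired analysis was possible because 1 group had counts per library. Tests between the libraries cannot leave a library out. Depth limits the arms at 0, and a share from under 10 counts is not firm.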
